A study of Mus musculus with 24 samples.

Results

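The subject is a set of 9 mouse genes with established roles in Notch signalling, in T-cell commitment or in T-cell acute lymphoblastic leukaemia (T-ALL): Notch1, Hes1, Gata3, Tcf7, Bcl11b, Lyl1, Fbxw7, Myb and Etv6. They were chosen by name and matched by gene identifier to 9 of the 27179 rows of the RNA-seq count table. From the marrow of 8 mice the study sorted HPC-1 cells, which are restricted progenitors, together with multipotent progenitors (MPP) and haematopoietic stem cells (HSC). In 4 of the mice Phf6 was deleted and in the other 4, the controls, it was intact. Each of 4 litters gave 1 mouse of each kind, so every population had 4 Phf6-deleted and 4 control libraries, and the libraries are called here by litter. The strain is labelled Phf6lox/Y;Tie2-creTg/+ for all mice, deleted and control alike, and the labels do not say how the 2 genotypes differed at the Cre transgene. Tie2-cre is active in endothelial and blood-forming cells, and the Y in the genotype denotes males; ages were not given. Marrow was depleted of CD3, B220, GR1 and TER119 positive cells and then sorted on cKIT, SCA1, CD150 and CD48. The HPC-1 libraries came from TruSeq Stranded chemistry, and those of HSC and MPP from SMART-Seq v4 amplification with Nextera XT, so population and library kit cannot be told apart wherever HPC-1 levels stand beside the others.

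PHF6 is an X-linked chromatin protein that is recurrently mutated in human T-ALL. NOTCH1 is a transmembrane receptor; once ligand binds, ADAM proteases and gamma-secretase release its intracellular part, which joins the DNA-binding protein RBPJ and mastermind-like coactivators to switch on genes such as Hes1, and FBXW7, a subunit of a ubiquitin ligase, marks that intracellular part for destruction. In the thymus Notch signals induce TCF1 (encoded by Tcf7) and GATA3, and BCL11B then seals commitment to the T lineage, whereas stem cells in marrow are maintained by factors that include LYL1, MYB and ETV6.

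The libraries held 9658167 to 27786830 assigned counts. Phf6, whose row checks the labels, averaged 56.0 ± 17.8 CPM in deleted HSC and 215.6 ± 23.9 in control HSC, 56.0 ± 8.97 in deleted MPP and 196.4 ± 26.9 in control MPP, and 27.5 ± 5.90 in deleted HPC-1 and 116.5 ± 18.6 in control HPC-1 (SD, n = 4 each; CPM scales counts to the library size). Every deleted library was below every control library of its population, and the edgeR adjusted p of HSC, MPP and HPC-1 was 0.0211, 0.00432 and 3.29e-05; the HSC call ended when litter entered as a block (adjusted p = 0.0606) and in 6 of the 8 fits that left out 1 library. Some libraries stood apart. The 10 most abundant genes took 9.34% of counts in the deleted MPP library of litter 3. Summed neutrophil and monocyte markers reached 10837 CPM in deleted HSC and 13853 CPM in deleted MPP of litter 4, and all 14 of them had a fitted change above 0 in deleted cells in each population, although none was called. Of all genes tested, 49.2%, 48.1% and 50.7% had a change below 0 in HSC, MPP and HPC-1. HPC-1 sums in litters 1 to 4 were 1162, 1349, 445 and 3145 CPM deleted, against 1127, 1482, 462 and 1002 CPM control. The deleted sum was the lower in litter 1 of HSC (4034 against 7605 CPM) and in litter 2 of MPP (1728 against 2834 CPM). It was the higher in the other litters of HSC and MPP. A list of 12 immediate early genes, chosen after values had been seen, summed to 14596 CPM in the deleted and 15925 CPM in the control HPC-1 library of litter 4, against 718 to 3677 CPM in the other 6 HPC-1 libraries. Most of the 16 T and NK cell markers were detected in HPC-1: 15 in deleted libraries and 13 in controls. Outside HPC-1 the number per group ran from 8 (control HSC) to 11 (deleted MPP). Cd8a was at 0 in every group and Cd3e in every group but deleted HPC-1. All 10 stem and progenitor gate genes were detected in all 6 groups.

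The promoters of 3 of the genes are shown because the results return to these genes: Gata3 and Myb were the pair of genes in the set whose levels tracked each other most closely, and Etv6 was the 1 gene of the set with the RBPJ core motif TGGGAA in this window. Each runs 5′ to 3′ on the gene's strand from 250 bases before to 50 bases after an annotated start (RefSeq, GRCm38.p6), at chr2:9878551-9878850 on the minus strand for Gata3, chr10:21160935-21161234 on the minus strand for Myb and chr6:134035450-134035749 on the plus strand for Etv6. For Gata3 that start lies inside the gene, whose 5′ end is at 9887953. Capitals mark motif matches, on either strand: the E-box CAGCTG in Gata3 and the RBPJ core in Etv6.
Gata3: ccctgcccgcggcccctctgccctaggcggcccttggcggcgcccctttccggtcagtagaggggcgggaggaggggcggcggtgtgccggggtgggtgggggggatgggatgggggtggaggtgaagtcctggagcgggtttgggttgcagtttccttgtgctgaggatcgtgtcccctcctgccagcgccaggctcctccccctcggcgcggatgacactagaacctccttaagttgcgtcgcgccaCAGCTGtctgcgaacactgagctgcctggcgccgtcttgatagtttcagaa
Myb: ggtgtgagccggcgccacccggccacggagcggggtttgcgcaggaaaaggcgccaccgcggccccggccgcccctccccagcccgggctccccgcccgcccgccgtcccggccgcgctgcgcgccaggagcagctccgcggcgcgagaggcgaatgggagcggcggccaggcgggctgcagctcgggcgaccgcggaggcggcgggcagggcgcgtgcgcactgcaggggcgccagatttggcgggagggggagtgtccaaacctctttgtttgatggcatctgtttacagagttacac
Etv6: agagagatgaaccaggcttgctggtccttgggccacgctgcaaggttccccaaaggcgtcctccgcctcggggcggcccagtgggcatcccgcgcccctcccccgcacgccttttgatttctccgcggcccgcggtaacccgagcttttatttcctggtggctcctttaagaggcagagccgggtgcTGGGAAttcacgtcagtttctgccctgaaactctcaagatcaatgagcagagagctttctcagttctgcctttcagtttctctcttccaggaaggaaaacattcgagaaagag

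In the RefSeq promoter set 8 of the 9 genes had 11 windows between them; the other gene was Hes1. TGGGAA occurred in 25.6% of all 32851 promoter windows and, among the 8 genes with a window, in Etv6 alone. The GATA motif AGATAA occurred in 11.2% of all windows and in none of these 8 genes. The TCF/LEF motif CTTTGA occurred in 16% and in Bcl11b and Lyl1, and CAGCTG in 16.3% and in Gata3 and Tcf7. Matches were sought on both strands, no motif is contained in another, and a match describes the letters only.

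Notch1, the receptor (gene ID 18128, chromosome 2, 26457902 to 26503822; gene coordinates here and below are RefSeq's on GRCm38.p6), was present in every library and did not differ with the deletion beyond its spread. Across litters 1 to 4 it had 15.9, 16.7, 15.6 and 46.5 CPM in deleted HSC, against 26.5, 13.2, 20.4 and 34.9 CPM in control HSC. The deleted library of litter 4 was far above the others, and it was also the HSC library with the highest neutrophil and monocyte sum; the part of those transcripts in the Notch1 value was not tested. In MPP it had 45.6, 53.7, 26.5 and 36.0 CPM in deleted mice, against 34.3, 41.7, 33.8 and 58.0 CPM in controls. Its HPC-1 libraries had 254, 263, 211 and 234 CPM in deleted mice, against 309.9, 206, 222 and 306 CPM in controls, so the groups overlapped in all 3 populations. The fitted log2 fold changes, deleted over control, for HSC, MPP and HPC-1 were -0.01 ± 0.41, -0.06 ± 0.26 and -0.12 ± 0.13 (SE; edgeR adjusted p = 0.998, 0.947 and 0.999). Without the deleted HSC library of litter 4 the HSC value was -0.56 (adjusted p = 0.696). In samples sorted as bulk, fewer cells of a type and less RNA per cell cannot be told apart, here and below.

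Hes1 (gene ID 15205, chromosome 16, 30065357 to 30067796) encodes a repressor that is a direct Notch target. In MPP it had 4.18, 3.69, 3.42 and 2.71 CPM in deleted mice, against 1.90, 2.06, 1.46 and 2.07 CPM in controls. All 4 deleted MPP libraries were above all 4 control libraries, as for 2.96% of the genes tested in MPP. The log2 fold change was 0.90 ± 0.40 (SE; 95% interval 0.01 to 1.78), with an edgeR p of 0.0484 and an adjusted p of 0.616, so the gene was not called. In HSC it had 13.7, 6.30, 2.92 and 5.55 CPM in deleted mice, against 12.0, 6.98, 6.32 and 3.22 CPM in controls, with overlapping groups and a log2 fold change of 0.00 ± 0.54 (adjusted p = 1.00 by edgeR). The deletion effect in MPP minus that in HSC was 0.91 ± 0.67 on the log2 scale (edgeR interaction, adjusted p = 1.00), so the effect was not shown to differ between them. Hes1 in HPC-1 had 2.62, 1.15, 2.17 and 31.3 CPM in deleted mice, against 1.53, 4.69, 0.0588 and 11.3 CPM in controls. The value of 0.0588 CPM was 1 count, and both libraries of litter 4, those with the high immediate early sums, were above all the rest. The HPC-1 log2 fold change was 1.07 ± 1.51 with all libraries (adjusted p = 0.999), -1.15 without the deleted library of litter 4 (adjusted p = 0.99) and -0.08 without both libraries of that litter (adjusted p = 1.00), all by edgeR. The part of the immediate early transcripts in these values was not tested.

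**Figure D1:**
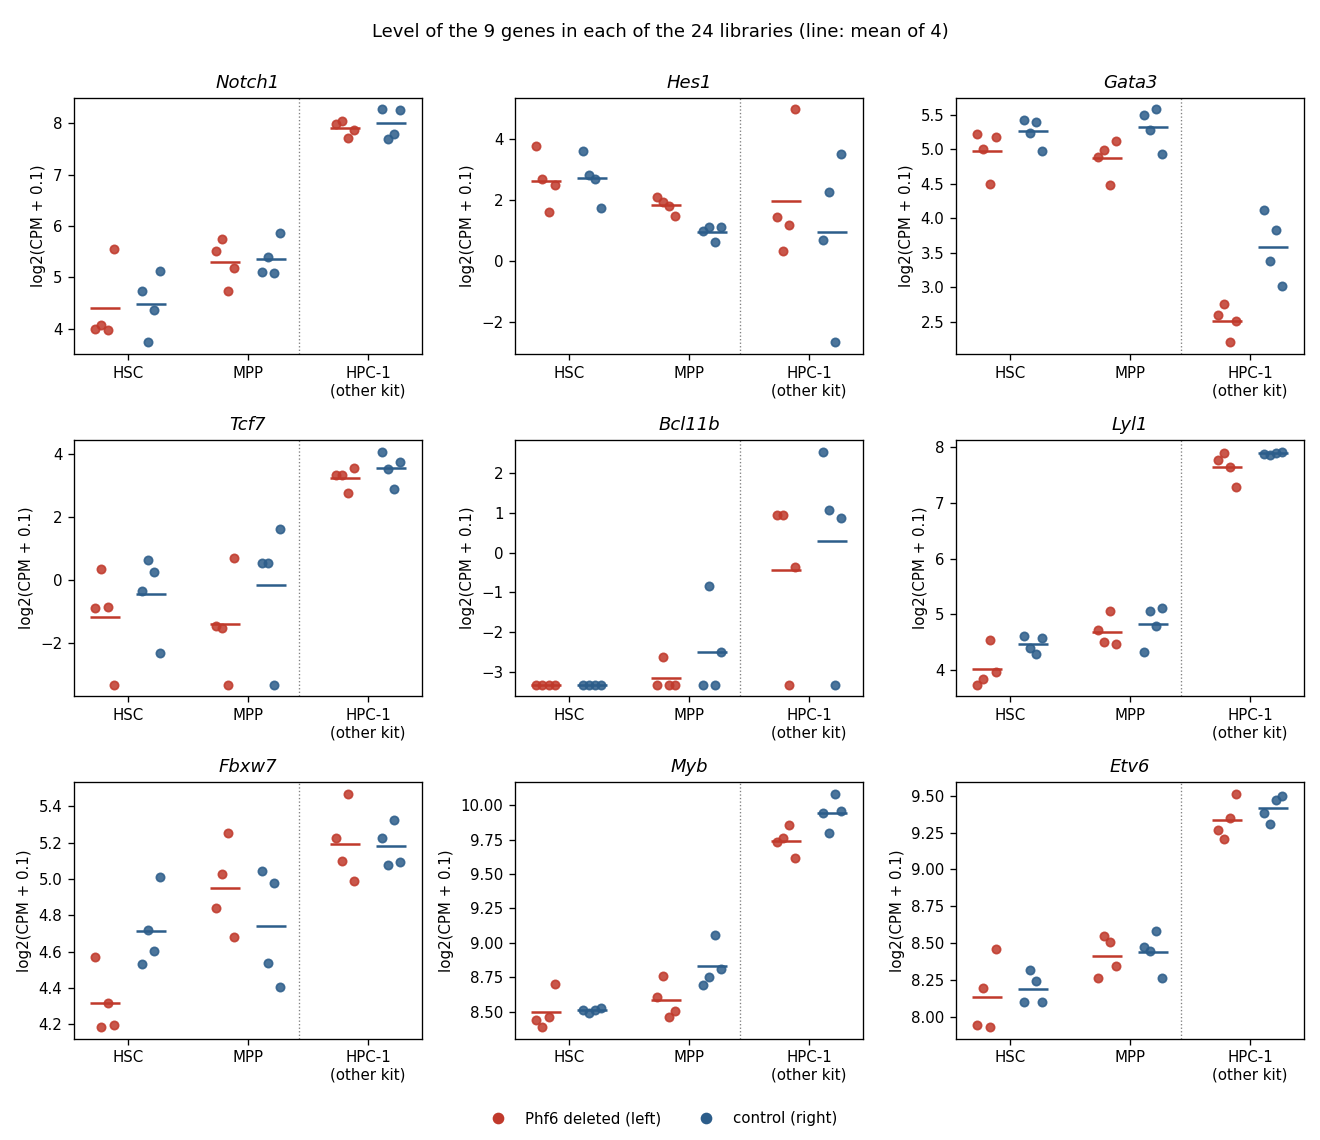
Level of each of the 9 genes in each of the 24 libraries, on the axis as log2(CPM + 0.1), with deleted libraries to the left of control libraries in HSC, MPP and HPC-1; each point is 1 library and the line is the mean of 4. Gata3 in HPC-1 and Hes1 in MPP are the comparisons of deleted with control libraries without overlap, and Bcl11b lies at 0 counts in all 8 HSC libraries.

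Gata3 (gene ID 14462, chromosome 2, 9857078 to 9887953), the zinc-finger factor of early T-cell development, which also acts in stem cells, showed the lowest deletion p-value of the set. In HPC-1 it had 5.96, 6.64, 4.49 and 5.57 CPM in deleted mice, against 17.2, 10.3, 14.1 and 7.96 CPM in controls. Every deleted HPC-1 library was below every control library, as for 2.08% of the genes tested there, and the deleted library was the lower of the litter's pair in 4 of 4 litters. The log2 fold change was -1.13 ± 0.27 (SE; 95% interval -1.71 to -0.54), with an edgeR p of 0.000939 and an adjusted p of 0.252 over 13907 genes. With DESeq2 the adjusted p was 0.0303, which is past the threshold of 0.05; with litter added as a block in edgeR it was 0.110, and over all 14 alternatives it ran from 0.0303 to 0.83 and the log2 fold change from -1.29 to -0.92. In MPP it had 29.5, 31.7, 22.3 and 34.4 CPM in deleted mice, against 44.7, 38.4, 47.6 and 30.5 CPM in controls. There the deleted library was lower in 3 of 4 litters, the groups overlapped, and the log2 fold change was -0.46 ± 0.21 (edgeR adjusted p = 0.617), or -0.34 without the deleted library of litter 3 (adjusted p = 0.721). In HSC it had 37.2, 31.8, 22.5 and 36.2 CPM in deleted mice, against 42.9, 37.6, 42.0 and 31.3 CPM in controls. The deleted library was again lower in 3 of 4 litters, with overlap, and the log2 fold change was -0.27 ± 0.23 (edgeR adjusted p = 0.998). Averaged over the 3 populations of each mouse the change was -0.60 ± 0.19 (SE, 8 mice; limma adjusted p = 0.405), and it was -0.37 with HSC and MPP alone (adjusted p = 0.669). The effect in HPC-1 minus that in HSC was -0.86 ± 0.34 (adjusted p = 1.00), that in HPC-1 minus MPP was -0.68 ± 0.33 (adjusted p = 0.915) and that in MPP minus HSC was -0.18 ± 0.30 (adjusted p = 1.00), all by edgeR interaction terms, so no population was shown to differ from another; of all genes tested, 0.0% passed in each of these 3 tests.

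Marker sums beside Gata3 were as follows. The 16 T and NK cell markers summed to 184 to 222 CPM in deleted and 214 to 247 CPM in control HPC-1 libraries, and to 171 to 246 CPM in deleted and 265 to 377 CPM in control MPP libraries. In HSC they summed to 166 to 373 CPM in deleted and 243 to 278 CPM in control libraries, with overlap. The MPP sums did not overlap. Nkg7, a granule protein gene, and Lat, an adaptor of the T-cell receptor, made up much of them. Cd3e and Cd8a were at 0 in all 8 MPP libraries. Nkg7 and Lat had log2 fold changes of -0.83 ± 0.25 and -0.52 ± 0.18 in MPP (SE, edgeR adjusted p = 0.551 and 0.592). Among the 7 markers tested in MPP, 4 had a fitted change above 0 and 3 below, so most did not share the direction of the sum. Innate lymphoid markers, which go with another cell type rich in GATA3, summed to 31.8 to 49.5 CPM in deleted and 33.7 to 44.7 CPM in control HPC-1 libraries, with Il13 at 0 in all of them. Of the 6 tested in HPC-1, 3 had a fitted change above 0 and 3 below. Icos and Il1rl1, which had the lowest p, were higher in deleted HPC-1. Their log2 fold changes were 1.15 ± 0.37 and 1.20 ± 0.44 (SE, edgeR adjusted p = 0.669 and 0.797). The part of T, NK and innate lymphoid cells in the Gata3 values was not tested.

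Tcf7 (gene ID 21414, chromosome 11, 52246527 to 52283383) encodes TCF1, a Notch-induced factor that opens the T-cell programme. It was low in HSC and MPP. In HSC it had 0.437, 1.17, 0.450 and 0 CPM in deleted mice, against 0.684, 1.46, 1.10 and 0.101 CPM in controls, and in MPP 0.261, 0.250, 0 and 1.54 CPM in deleted mice, against 1.35, 1.38, 0 and 2.99 CPM in controls. A count of 0 allowed up to 3 counts per library, which was 0.136 to 0.302 CPM over HSC and MPP libraries and covers counting error only. HPC-1 libraries had 10.1, 9.98, 6.72 and 11.7 CPM in deleted mice, against 17.0, 11.4, 7.30 and 13.4 CPM in controls. The deleted library was the lower of the pair in 4 of 4 litters in HSC and in HPC-1 and in 3 of 4 in MPP, where both libraries of litter 3 were at 0, while the groups overlapped throughout. The HSC pair of litter 4 was 0 counts against 1 count. That lies within the 3 counts that a 0 allows, so the order of this pair cannot be told. The log2 fold changes for HSC, MPP and HPC-1 were -0.69 ± 1.17, -1.38 ± 1.19 and -0.35 ± 0.27 (SE; edgeR adjusted p = 0.998, 0.699 and 0.999). The MPP value ran from -2.90 without the deleted library of litter 4 to -0.74 without the control library of that litter. Tcf7 overlaps Skp1, a gene of 237 to 1097 CPM, and how the counting dealt with shared reads is not given in the sources used here.

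Bcl11b (gene ID 58208, chromosome 12, 107910403 to 108004145), the gene of T-lineage commitment, was at 0 counts in all 8 HSC libraries. In MPP it had 0, 1, 0 and 0 counts in deleted mice, against 0, 6, 0 and 1 counts in controls, and it did not pass the filter on low counts in either population. In HPC-1 it had 1.83, 1.83, 0 and 0.672 CPM in deleted mice, against 5.71, 2.00, 0 and 1.71 CPM in controls. Both libraries of litter 3 were at 0, where 3 counts correspond to 0.108 to 0.177 CPM over the HPC-1 libraries, and the other 3 litters each had the lower value in the deleted mouse. The log2 fold change was -1.12 ± 1.25 (SE; edgeR adjusted p = 0.999). The control library of litter 1 carried much of it, and without that library the value was -0.20 (adjusted p = 0.999).

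**Figure D2:**
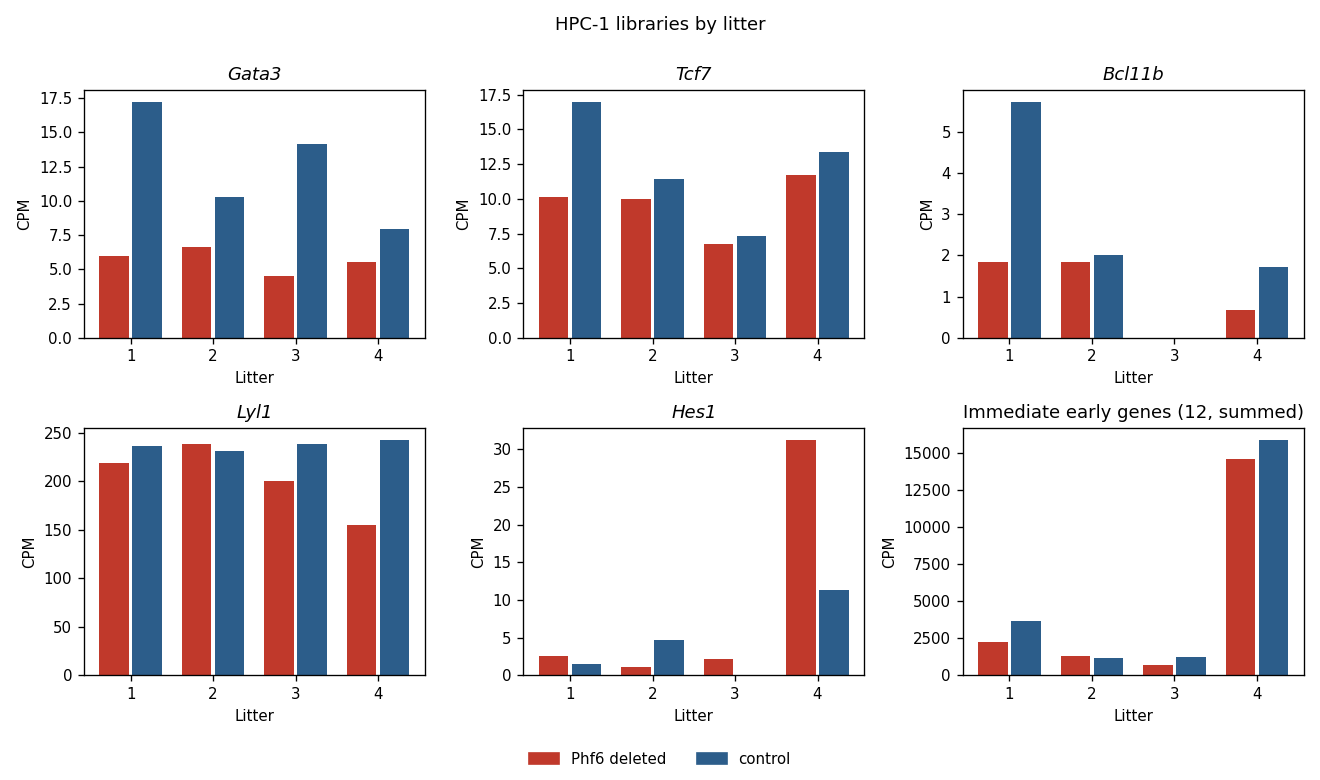
CPM in the 8 HPC-1 libraries by litter (bars from 0, deleted left of control) for Gata3, Tcf7, Bcl11b, Lyl1 and Hes1 and for the sum of 12 immediate early genes. Gata3 is lower in the deleted mouse of every litter, Bcl11b is at 0 in both mice of litter 3, and Hes1 and the immediate early sum are highest in litter 4.

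Lyl1 (gene ID 17095, chromosome 8, 84701423 to 84704716) encodes a basic helix-loop-helix factor of stem and progenitor cells that is activated in a class of T-ALL. In HPC-1 it had 218, 238, 200.2 and 155 CPM in deleted mice, against 236, 231, 238 and 243 CPM in controls. The controls lay close together, and the deleted library of litter 4 was the lowest. The log2 fold change was -0.22 ± 0.11 (SE; edgeR adjusted p = 0.994), and -0.11 without that library (adjusted p = 0.971). In HSC it had 13.2, 14.3, 23.1 and 15.5 CPM in deleted mice, against 24.4, 20.8, 19.4 and 23.7 CPM in controls, lower in 3 of 4 litters with overlapping groups. The HSC change was -0.42 ± 0.26 (adjusted p = 0.998) and the MPP change -0.15 ± 0.24 (adjusted p = 0.838), both by edgeR. In MPP it ranged from 22.0 to 33.4 CPM in deleted mice and from 19.9 to 34.5 CPM in controls. Lyl1 overlaps Nfix, a gene of 49.6 to 81.9 CPM, and here too the treatment of shared reads, which bears on every Lyl1 level, is not given in the sources used here.

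Myb (gene ID 17863, chromosome 10, 21124930 to 21160984), a DNA-binding factor that stem cells need and that is duplicated in some T-ALL, was the most abundant of the set per kilobase. In HPC-1 it had 849, 868, 926 and 783 CPM in deleted mice, against 985, 891, 1084 and 995 CPM in controls. The deleted library was the lower of the pair in 4 of 4 litters, though the groups overlapped. The log2 fold change was -0.21 ± 0.08 (SE; 95% interval -0.39 to -0.03; edgeR adjusted p = 0.878). In MPP it had 389, 432, 352 and 363 CPM in deleted mice, against 413, 431, 533 and 449 CPM in controls, a change of -0.26 ± 0.16 (edgeR adjusted p = 0.645). In HSC it had 348, 335, 353 and 415 CPM in deleted mice, against 365, 358, 365 and 368 CPM in controls, and the change was -0.005 ± 0.13 (edgeR adjusted p = 0.998).

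Etv6 (gene ID 14011, chromosome 6, 134035700 to 134270158), an ETS-family repressor that marrow stem cells need, overlapped between groups in every population. It ranged from 244 to 352 CPM in deleted and from 275 to 319 CPM in control HSC, from 308 to 374 CPM in deleted and from 308 to 384 CPM in control MPP, and from 591 to 729.9 CPM in deleted and from 635 to 722 CPM in control HPC-1. Its log2 fold changes were -0.04 ± 0.15, -0.03 ± 0.16 and -0.08 ± 0.09 in HSC, MPP and HPC-1 (SE; edgeR adjusted p = 0.998, 0.952 and 0.999). The 95% interval in HPC-1 was -0.26 to 0.11.

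Fbxw7 (gene ID 50754, chromosome 3, 84814990 to 84979198), the ubiquitin ligase subunit that ends Notch signals and also targets MYC, had 23.7, 18.1, 19.9 and 18.2 CPM in deleted HSC, against 23.0, 26.3, 24.2 and 32.2 CPM in control HSC. The deleted library was lower in 3 of 4 litters, and the deleted library of litter 1 overlapped the controls. In MPP it had 28.6, 32.5, 38.1 and 25.5 CPM in deleted mice, against 32.9, 23.2, 31.4 and 21.1 CPM in controls, and in 3 of 4 litters the deleted mouse had the higher value. In HPC-1 it ranged from 31.6 to 44.2 CPM in deleted mice and from 33.7 to 40.0 CPM in controls. The log2 fold changes were -0.40 ± 0.23, 0.20 ± 0.22 and 0.02 ± 0.13 in HSC, MPP and HPC-1 (SE; edgeR adjusted p = 0.998, 0.769 and 0.999).

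**Figure D3:**
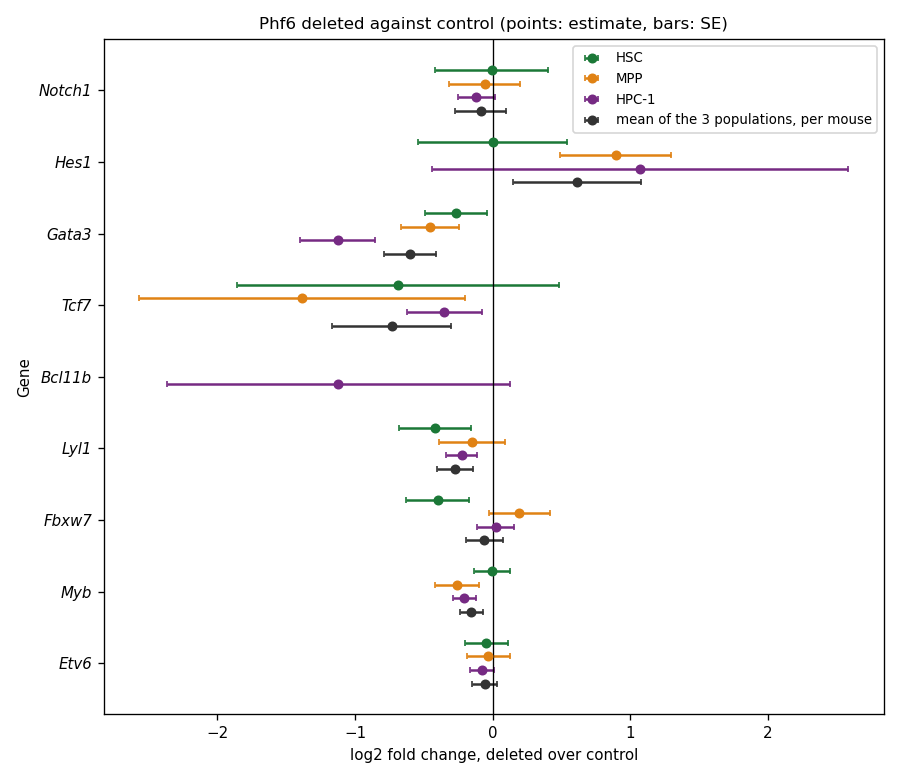
Log2 fold change, deleted over control, of each of the 9 genes in HSC, MPP and HPC-1 (edgeR) and for the mean of the 3 populations of each mouse (limma), with bars of 1 SE. Gata3 lies below 0 in all 4 estimates, with -1.13 ± 0.27 in HPC-1, and the bars of Hes1, Tcf7 and Bcl11b are the widest.

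Counted together, none of the 8 genes tested in HSC, the 8 in MPP and the 9 in HPC-1 passed an adjusted p of 0.05 for the deletion in edgeR, where 0.0073% of 13693 genes, 0.029% of 13806 and 0.0647% of 13907 did. At an unadjusted p under 0.05 there were 0 in HSC, 1 in MPP (Hes1) and 2 in HPC-1 (Gata3 and Myb), against 3.86%, 8.09% and 4.99% of all genes. DESeq2 called Gata3 in HPC-1, where it called 0.491% of genes, and no gene of the set in HSC or MPP, where it called 0.102% and 0.693%. In the means over populations 0 of 8 passed in limma, against 0.101% of 12843 genes, and 1 (Gata3) had an unadjusted p under 0.05, against 8.93%. Fitted changes were below 0 for 7 of 8 genes in HSC, 6 of 8 in MPP and 7 of 9 in HPC-1, with medians of -0.16, -0.10 and -0.21 on the log2 scale, beside 0.01, 0.02 and -0.004 over all genes tested. The share of all genes below 0 was 49.2%, 48.1% and 50.7%, and the 3 populations come from the same 8 mice. Several fitted changes of the set lay within 0.1 of 0. Of these, Notch1, Hes1, Myb and Etv6 in HSC took the other sign when 1 library was left out. So did Notch1 and Etv6 in MPP and Fbxw7 in HPC-1. Hes1 in HPC-1, at 1.07 ± 1.51, was further from 0 and ran from -1.15 to 2.13 in these fits.

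The wider Notch and T-cell gene lists gave no call for the deletion in edgeR either. Of the other genes on these lists, 0 of 6 Notch receptors and ligands tested passed in HSC, 0 of 7 in MPP and 0 of 5 in HPC-1; of 24 genes of Notch processing and the RBPJ complex, 0 passed in any population. Of the Notch targets 0 of 9, 0 of 9 and 0 of 10 passed, and of T-lineage commitment genes 0 of 8, 0 of 9 and 0 of 12. T-ALL oncogene factors had 0 of 10 in each, and T-ALL tumour suppressors and signalling genes 0 of 22, 0 of 22 and 0 of 23. In the order of these lists, fitted changes above 0 numbered 1, 8, 6, 2, 5 and 12 in HSC. The numbers in MPP were 5, 10, 5, 7, 8 and 17, and in HPC-1 1, 12, 5, 3, 4 and 11. Most genes tested in MPP were thus above 0 in every list but that of Notch processing. Some genes are on more than 1 list. Id2, an inhibitor of E-proteins that drive T-cell commitment, had 19.7, 12.8, 19.4 and 18.3 CPM in deleted MPP, against 8.95, 6.42, 7.21 and 7.06 CPM in control MPP. Its groups did not overlap, as for the 2.96% of genes given above, and its log2 fold change was 1.24 ± 0.26 (SE; edgeR adjusted p = 0.214), while DESeq2 called it (adjusted p = 0.000824). Myc, a Notch target in T-ALL and a substrate of FBXW7, had 295, 366, 196 and 266 CPM in deleted MPP, against 417, 398, 417 and 591 CPM in control MPP. Those groups did not overlap either, with the deleted libraries lower, as for 2.77% of genes, and the change was -0.70 ± 0.22 (edgeR adjusted p = 0.551).

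MPP were then set against HSC, which were made with the same kit, within each genotype; the 2 libraries of a mouse share that animal, and these comparisons share libraries with those above. In control mice Hes1 fell to 1.90, 2.06, 1.46 and 2.07 CPM in MPP, against 12.0, 6.98, 6.32 and 3.22 CPM in HSC of the same litters. All 4 MPP libraries were below all 4 HSC libraries, as for 7.93% of genes, and the log2 fold change, MPP over HSC, was -1.94 ± 0.44 (SE; edgeR adjusted p = 0.0143). Hes1 was the 1 gene called of the 8 of the set tested in controls, where 8.84% of 13636 genes were called. The call ended without the mouse of litter 1, 2 or 3 (adjusted p = 0.106, 0.0891 and 0.0685) and held without that of litter 4 (0.0176). In deleted mice Hes1 had 4.18, 3.69, 3.42 and 2.71 CPM in MPP, against 13.7, 6.30, 2.92 and 5.55 CPM in HSC; litter 3 ran the other way, and the change of -1.04 ± 0.55 was not called (edgeR adjusted p = 0.418). The test of the difference between genotypes is the interaction given above, which did not pass. Neutrophil and monocyte markers were below 0 in MPP over HSC for 14 of 14 genes in controls, none called, summing to 219 to 2834 CPM in MPP and 615 to 7605 CPM in HSC; their part in the Hes1 value was not tested.

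Notch1 had 34.3, 41.7, 33.8 and 58.0 CPM in control MPP, against 26.5, 13.2, 20.4 and 34.9 CPM in control HSC. It was higher in MPP in 4 of 4 mice with overlapping groups, and its change was 0.82 ± 0.27 (SE; edgeR adjusted p = 0.0910). Myb had 413, 431, 533 and 449 CPM in control MPP, against 365, 358, 365 and 368 CPM in control HSC, with no overlap and a change of 0.32 ± 0.11 (edgeR adjusted p = 0.106); groups without overlap and higher in MPP made up 7.68% of genes. With the mouse as a block in edgeR both were called (Notch1 adjusted p = 0.0237, Myb 0.0297), as they were in DESeq2 (0.0340 and 0.0301), and Hes1 kept its call in both. Those fits called 15.5% and 12.9% of all genes. In deleted mice 0 of 7 genes of the set passed in edgeR, where 1.41% of 13887 did, and 1, Fbxw7, had an unadjusted p under 0.05, against 14.4%; DESeq2, which called 6.26% of genes there, also called none of the set. Fbxw7 had 28.6, 32.5, 38.1 and 25.5 CPM in deleted MPP, against 23.7, 18.1, 19.9 and 18.2 CPM in deleted HSC. These groups did not overlap, with MPP higher, as for 5.96% of genes, and the change was 0.62 ± 0.25 (edgeR adjusted p = 0.287). In controls it was 0.04 ± 0.19, and the interaction (deletion effect in MPP minus that in HSC) was 0.60 ± 0.30 (edgeR adjusted p = 1.00), so the genotypes were not shown to differ.

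**Figure D4:**
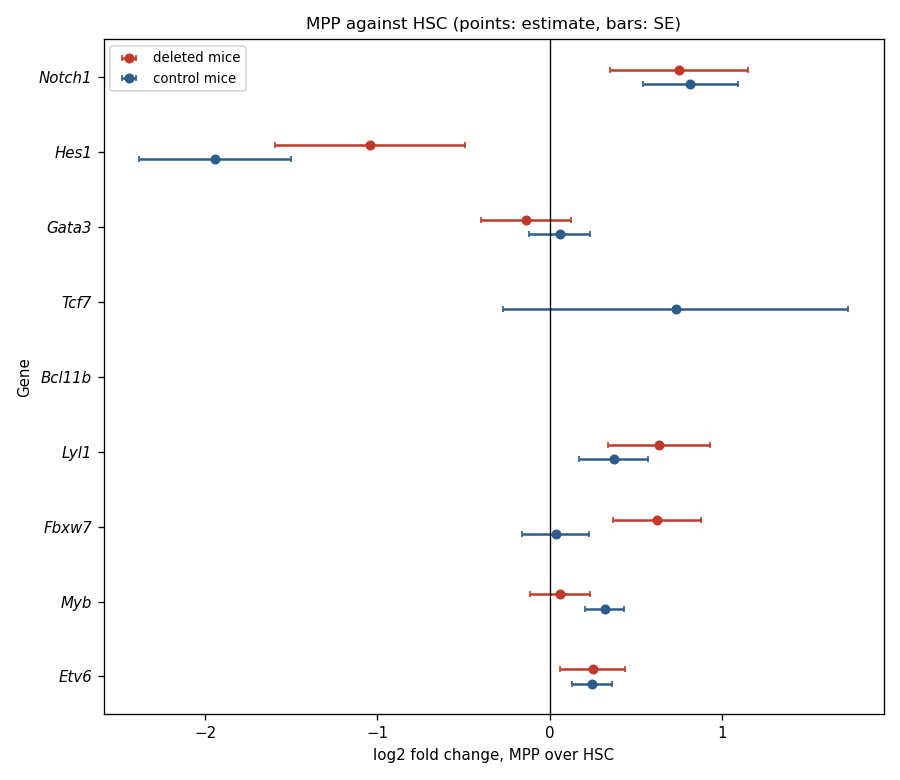
Log2 fold change, MPP over HSC, of the genes of the set in deleted and in control mice (edgeR), with bars of 1 SE. Hes1 lies furthest below 0, at -1.04 ± 0.55 in deleted and -1.94 ± 0.44 in control mice; Bcl11b has no point and Tcf7 has one in control mice alone, because they did not pass the filter on low counts.

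Among the wider lists, MPP were set against HSC in control mice in the same way, where 8.84% of all genes were called. Of the Notch receptors and ligands 0 of 6 were called, and of the genes of Notch processing and the RBPJ complex 1 of 24, Maml3, a mastermind-like coactivator, which was higher in MPP (0.74 ± 0.21, adjusted p = 0.0467). Of the T-ALL tumour suppressors and signalling genes 1 of 22 was called, Ezh2, a histone methyltransferase, which was lower (-0.49 ± 0.13, adjusted p = 0.0321). Maml3 and Ezh2 lost their calls whichever mouse was left out (lowest adjusted p 0.0653 and 0.0600). Nrarp, a Notch target that feeds back on the pathway, fell to 5.82, 7.49, 6.66 and 6.91 CPM in MPP, against 10.1, 20.7, 21.9 and 19.6 CPM in HSC, a log2 change of -1.43 ± 0.27 (SE; edgeR adjusted p = 0.005). It lost its call without the mouse of litter 2 (adjusted p = 0.0511). Of the 9 genes tested on the Notch target list besides Hes1, 2 were called. Nrarp was lower, and Dtx3, a ubiquitin ligase gene placed on that list, was higher (0.65 ± 0.17, edgeR adjusted p = 0.0282). Of the 9 T-lineage commitment genes tested 3 were called higher and 0 lower, while fitted changes were above 0 for 4 and below 0 for 5. Dntt, terminal transferase of lymphoid precursors, rose to 20.8, 12.3, 26.5 and 42.1 CPM in MPP, against 1.64, 0.258, 0 and 0 CPM in HSC, a log2 change of 5.62 ± 0.88 (edgeR adjusted p = 0.00284). Its change was 8.22 without the mouse of litter 1, whose HSC library was the highest, and 4.92 without that of litter 4. Ikzf1, the lymphoid factor Ikaros, rose in MPP by 0.70 ± 0.14 in control mice (adjusted p = 0.00625) and by 1.36 ± 0.24 in deleted mice (adjusted p = 0.0251), and Spi1, the factor PU.1, by 0.50 ± 0.13 in control mice (adjusted p = 0.0305). Of 10 T-ALL oncogene factors 3 were higher and 3 lower, among them Hoxa9 at 0.85 ± 0.16 and Mycn at -0.77 ± 0.14. Spi1 is on this list too, so its call is counted in both lists. Dntt and Mycn kept their calls in every fit that left out 1 mouse; Ikzf1, Hoxa9, Spi1 and Dtx3 each lost theirs in at least 1 of these fits.

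Per kilobase of transcript, which allows genes to be compared, Myb led in HPC-1 with 227 ± 15.6 CPM per kb in deleted and 262 ± 20.9 in control mice, ahead of Etv6 with 117 ± 10.9 and 123 ± 7.32 and of Lyl1 with 113 ± 19.7 and 132 ± 2.66 (SD, n = 4 each, deleted then control); Lyl1 was above Etv6 in the means of control mice alone. Notch1 followed with 25.3 ± 2.43 in deleted and 27.5 ± 5.78 in control HPC-1, and Bcl11b was lowest with 0.137 ± 0.114 and 0.298 ± 0.304. In HSC Myb led again (96.0 ± 9.48 in deleted and 96.4 ± 1.09 in control mice), followed by Etv6 (51.3 ± 9.12 and 52.9 ± 3.99), whereas Notch1 had 2.49 ± 1.60 and 2.50 ± 0.970. Set beside each other without a test, Notch1 averaged 240.4 ± 23.0 and 261 ± 54.8 CPM in deleted and control HPC-1, but 40.4 ± 11.8 and 42.0 ± 11.3 CPM in MPP, and Gata3 averaged 5.67 ± 0.897 and 12.4 ± 4.10 CPM in HPC-1, but 29.5 ± 5.20 and 40.3 ± 7.59 CPM in MPP. Kit and population cannot be told apart in these contrasts. When the 4 HSC and MPP groups were ranked by mean, neighbouring groups overlapped for all 9 genes except at 1 step, deleted over control MPP for Hes1.

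Correlations between genes of the set ran in both directions. After each value was centred on the mean of its population, the 28 pairs among the 8 genes kept in all populations had a median Pearson r of 0.03 over 24 libraries, which share mice and litters. The highest was 0.57 for Gata3 and Myb, with 0.26 among HSC libraries and 0.67 among those of MPP and, again, of HPC-1, and the lowest was -0.48 for Hes1 and Myb. The centring left differences between deleted and control libraries in the values. Gata3 and Myb both had fitted deletion changes below 0 in MPP and in HPC-1. Among all 12842 genes ranked, those most like Gata3 were Bgn (r = 0.81) and Timp2 (0.80), one of the 2 most like Hes1 was Phlda1 (0.84), and those most like Notch1 were Sorl1 (0.75) and Pdgfrb (0.75). For Myb they were Csgalnact1 (0.81) and Sipa1l1 (0.79), for Etv6 Sgms1 (0.79) and Nrip1 (0.79), for Tcf7 Ndufv1 (0.72) and Mon1a (0.70), and for Fbxw7 1700066M21Rik (0.76) and Tmem128 (0.68). One of the 2 most like Lyl1 was Chd4 (0.78). These are the highest of many correlations and are given as a description.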

How the data were processed

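RNA from 24 sorted populations (3 populations of 8 mice) was sequenced as paired-end reads of 80 bp, per the labels' protocols. The deposited table holds raw counts of read pairs per Entrez gene with the gene's length; the authors used bcl2fastq and featureCounts with mm10, per the submitters' processing notes. The deposited length column, an other unit (bases), was used for CPM per kb. Which aligner, annotation and strand option were used is not given in the sources used here. Of 27179 identifiers, 25275 were named by RefSeq and 18 by GENCODE, and 1886 stayed unnamed; none of the 9 genes was among these.

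Counts were tested with edgeR 4.0.16 (robust quasi-likelihood, TMM factors, filterByExpr with a minimum count of 10 and a minimum total of 15) in R 4.3.3 over all genes kept, with Benjamini-Hochberg adjustment and a threshold of 0.05. Means over the populations of a mouse were tested with limma 3.58.1 (log2 CPM, prior count 2). The SE of a log2 fold change was taken as its size over the root of F, and 95% intervals use the fit's degrees of freedom. CPM values use TMM-scaled library sizes, with HSC and MPP scaled together and HPC-1 alone; library depth sets their counting precision, with a floor of 3 counts. Alternatives were DESeq2 1.42.0, RLE size factors, no filter, a block, each replicate left out and, chosen after seeing the data, HPC-1 without litter 3 or litter 4. The models were tested on simulated data.

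The labels give litters as replicate numbers, so a number pairs deleted with control mice, and MPP with HSC of 1 mouse. Deviations of such pairs correlated at 0 to 0.06 in HSC, 0.03 to 0.18 in MPP, 0.04 to 0.4 in HPC-1, and 0.02 to 0.41 (deleted) and 0.18 to 0.37 (control) between MPP and HSC. No 2 libraries of a group agreed within sampling noise (chi-square per degree of freedom 16.1 to 234). Each group is 4 mice, and p-values measure the spread between them.

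The 9 genes, the lists and the motifs were chosen with earlier results of these data known. By rule the text names the 9 genes and Phf6, up to 4 called genes per list, up to 2 by lowest p where none was called, and the 2 genes most like each by Pearson r, of which 1 each for Hes1 and Lyl1 is not reported here; where list genes are named, it is by this rule.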

Additional observations from a re-analysis of the deposited data

Results flagged for a closer look

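In 5 of the 52 groups of 4 libraries examined for these genes, 1 library lay apart from the other 3 by more than Dixon's 95% critical value for the gap over the group's range; chance alone flags about 1 group in 20. Notch1 had 46.5 CPM in the deleted HSC library of litter 4, against 15.6 to 16.7 CPM in the other deleted HSC libraries. Hes1 had 31.3 CPM in the deleted HPC-1 library of litter 4, against 1.15 to 2.62 CPM in the others of that group. Tcf7 had 1.54 CPM in the deleted MPP library of litter 4, against 0 to 0.261 CPM. Bcl11b had 0.0626 CPM, 1 count, in the deleted MPP library of litter 2, where the other 3 had 0; any single count among zeros meets this criterion, and the value is below the 3 counts (0.188 CPM) that a count of 0 allows in that library, so it carries no weight beside the other 4. Bcl11b also had 0.459 CPM, 6 counts, in the control MPP library of litter 2, where the others had 0 to 1 count.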

How the results depend on the processing

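Over 422 refits of the deletion comparisons for genes of the set, 387 kept the direction and the side of the threshold, 34 changed sign and 1, Gata3 in HPC-1 with DESeq2, was newly called; over 120 refits of MPP against HSC these numbers were 109, 4 and 4, and 3 lost the call of Hes1. The causes were not tested. In HSC the log2 fold change of Notch1 was 0.0018 with RLE size factors and 0.0017 with DESeq2, that of Myb 0.0025 with either, and that of Hes1 -0.0072 with no filter. Without litter 4 in HPC-1, Hes1 was at -0.077, and without litter 3 Fbxw7 was at -0.022. With 1 replicate left out the deletion values ran, in HSC, from -0.56 to 0.25 for Notch1, -0.52 to 0.37 for Hes1, -0.079 to 0.036 for Myb and -0.17 to 0.029 for Etv6; in MPP from -0.22 to 0.14 for Notch1 and -0.090 to 0.017 for Etv6; in HPC-1 from -1.15 to 2.13 for Hes1 and -0.076 to 0.089 for Fbxw7; and over populations from -0.20 to 0.071 for Notch1 and -0.12 to 0.0051 for Fbxw7. MPP over HSC ran from -0.024 to 0.16 for Myb in deleted mice and, in controls, from -0.27 to 1.32 for Tcf7 and -0.12 to 0.24 for Fbxw7. Genes called with 1 replicate left out ran from 0 to 1 in HSC, 2 to 22 in MPP, 1 to 11 in HPC-1, 4 to 26 over populations, 14 to 153 for MPP over HSC in deleted mice and 533 to 880 in controls, where 0 to 1 gene of the set was called. DESeq2 called 14 genes in HSC, 95 in MPP, 68 in HPC-1 (1 of the set), 846 for MPP over HSC in deleted mice, 3 of the set in controls, and 2, 11 and 7 for the differences of effects between MPP and HSC, HPC-1 and HSC, and HPC-1 and MPP. With no filter 20 genes were called in HPC-1, and with HSC and MPP alone 2 over populations. With the litter or mouse as a replicate block 0 genes were called in HSC, 60 in HPC-1 and 2109 for MPP over HSC in controls (3 of the set), and Hes1 in HSC was at -0.066; beyond Phf6 in HSC and Notch1 and Myb in MPP over HSC, the block changed no call of a gene of the set. Depth limits Bcl11b, with 0 to 6 counts in HSC and MPP, where no difference was detectable; Tcf7, with 0 to 39 counts there, was tested for the deletion in both, with SEs of 1.17 and 1.19.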
